A study of Mus musculus with 2 samples.

Results

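The regulators of the adipocyte fate described here are 8 genes, Cebpa, Cebpb, Cebpd, Pparg, Prdm16, Ebf1, Ebf2 and Pdgfra, examined for peaks of enriched DNA in mouse muscle stem cells. A peak was counted for a gene when its summit lay inside the gene or within 100 kb of it on GRCm38. By this rule 7 of the 2977 peaks of the deposited list belonged to 4 of the 8 genes. Chromatin immunoprecipitation with sequencing (ChIP-seq) used an anti-GFP antibody (green fluorescent protein) to recover DNA from untreated C57BL/6 cells of the genotype Pax7-YFP KI, a knock-in that brings a yellow fluorescent protein to Pax7, and the ChIP library held 10622111 tags. It was compared with input DNA, without an antibody, from untreated muscle stem cells of the same strain and genotype, with 20429667 tags. Each kind had 1 library, so no value carries a replicate error and nothing was tested between libraries. The labels do not say whether the fluorescent protein is fused to PAX7, nor the age, sex or number of the animals, and ChIP from cells without the knock-in was not analysed here. The labels thus do not settle whether a peak is binding of PAX7. Peaks give enrichment over input and not RNA, so the sorted cell type could not be checked against the RNA of its markers.

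The stem cells of skeletal muscle are marked by PAX7, which binds DNA through a paired domain and a homeodomain. In adipocyte differentiation, C/EBPβ and C/EBPδ act early and lead to the induction of C/EBPα and of the nuclear receptor PPARγ, which then hold the adipocyte programme. PRDM16 and EBF2 take part in the choice of the brown fat fate, and brown adipocytes share an embryonic progenitor with skeletal muscle. Muscle stem cells themselves normally give rise to muscle, while the fat that appears in damaged muscle comes mainly from fibro-adipogenic progenitors, which carry the receptor PDGFRα.

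In the table of promoter windows used here, which run from 250 bases before each annotated start, 1 of the 7 peaks lay over a window, that of Lrp3 near Cebpa, and 656 of all 2977 peaks (22.0%) did so. None of the 7 lay over a promoter window of Cebpa, Cebpb, Pparg, Prdm16, Ebf1 or Pdgfra, the 6 members in that table. Cebpd and Ebf2 were absent from it, so a peak at their starts could not be counted. The Lrp3 promoter is shown because it carries that peak, and those of Cebpa and Pparg because they start the adipocyte regulators that had a peak elsewhere in their window. Each line gives the 250 bases before an annotated start from RefSeq (GRCm38.p6), 5′ to 3′, and capitals mark every match to the motifs named after them. For Lrp3 the stretch is chr7:35215346-35215595 on the minus strand, for Cebpa chr7:35119043-35119292 on the plus strand, and for Pparg chr6:115421816-115422065 on the plus strand, before the start nearest to the peak.
Lrp3: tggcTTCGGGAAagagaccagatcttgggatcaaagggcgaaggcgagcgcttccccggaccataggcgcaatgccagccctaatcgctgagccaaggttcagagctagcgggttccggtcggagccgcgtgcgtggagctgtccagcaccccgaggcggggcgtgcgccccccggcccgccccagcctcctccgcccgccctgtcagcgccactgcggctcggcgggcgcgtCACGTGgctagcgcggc
Cebpa: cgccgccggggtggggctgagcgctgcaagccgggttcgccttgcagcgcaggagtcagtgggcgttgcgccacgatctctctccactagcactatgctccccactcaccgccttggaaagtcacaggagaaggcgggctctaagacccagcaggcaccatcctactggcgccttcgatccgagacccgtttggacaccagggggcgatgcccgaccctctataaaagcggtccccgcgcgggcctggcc
Pparg: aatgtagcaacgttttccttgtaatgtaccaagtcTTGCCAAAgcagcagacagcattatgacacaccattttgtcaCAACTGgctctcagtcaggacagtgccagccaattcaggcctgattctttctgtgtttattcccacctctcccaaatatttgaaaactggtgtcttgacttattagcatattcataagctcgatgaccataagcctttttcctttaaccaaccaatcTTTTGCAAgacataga
In the Lrp3 line the peak covers bases 113 to 250 and its summit is base 163, counted from 1 at the 5′ end. The motifs searched on both strands were the paired-type homeodomain palindromes, in which TAAT and ATTA stand 3 or 2 bases apart, the paired-domain letters GTCACGC, the E-box CANNTG, the AP-1 letters TGANTCA and the C/EBP letters TTNCNNAA. Lrp3 held an E-box, CACGTG at base 234, under the peak, and C/EBP letters at base 5, outside it. Pparg held an E-box at base 78 and C/EBP letters at bases 36 and 235. The Cebpa stretch held no match to any of the 6 motifs, and no match overlapped another. Matches to the E-box were present in 66.2% of the 32851 promoter stretches of that length and matches to the C/EBP letters in 36.8%, so neither is unusual there. The palindromes with 3 and with 2 bases between were in 0.463% and 0.384% of the stretches, GTCACGC in 1.78% and TGANTCA in 6.75%, and none of them was in the 3 stretches shown. G and C made up 71.2% of the Lrp3 stretch, 66.4% of that of Cebpa and 40.8% of that of Pparg, against a median of 52.4% of all stretches. The sequence under the other 6 peaks was not analysed here.

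Among the C/EBP genes, Cebpa had the strongest peak of all 8 regulators, Cebpd had a weak one across its lower-coordinate end, and Cebpb had none in its window. Cebpa (gene ID 12606) encodes C/EBPα and lies at chromosome 7, 35119293 to 35121928, on the plus strand. Its nearer peak spanned 35127153 to 35127512, a width of 360 bp, with its summit 5427 bp past the downstream end of the gene and 8062 bp from its start. The pileup, the count of ChIP fragments that cover the summit, was 22 (95% exact Poisson interval 13.8 to 33.3). The input background after scaling to the ChIP depth was 0.977 fragments. That value is a floor, the genome-wide mean that stands in where the local input is no higher. The fold enrichment, the authors' ratio of pileup plus 1 to background plus 1, was 11.6 (7.48 to 17.4), with a −log10 q of 18.0. Only 185 of the 2977 peaks had a higher fold, and the summit lay in no annotated gene of any kind. The fold and q of every peak given here are the authors' own, and each interval reflects the counting error of the pileup alone.

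The other peak in the Cebpa window spanned 35215312 to 35215483 and had its summit 93505 bp from Cebpa, inside Lrp3, which encodes a receptor of the LDL receptor-related family, and 88 bp before an annotated Lrp3 start. Its pileup was 12 (6.20 to 21.0) in ChIP against a scaled input background of 0.977 fragments, which gave a fold of 6.58 (3.64 to 11.1). Lrp3 and not Cebpa is thus the gene at this summit. The intervals of the 2 folds overlap, from 7.48 to 11.1, and their difference was not tested.

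Cebpd (gene ID 12609), which encodes C/EBPδ, lies at chromosome 16, 15887286 to 15889545. A peak at 15887163 to 15887334 ran across the lower-coordinate end of the gene, with its summit 89 bp outside it, the closest of any summit outside the 8 genes. The promoter windows used here lack Cebpd and its strand, so whether this end is the start of the gene was not determined. The pileup there was 11 (5.49 to 19.7) in ChIP, against 0.977 fragments of scaled input background, and the fold was 6.07 (3.28 to 10.5) with a −log10 q of 5.28. The second peak of the Cebpd window, at 15984373 to 15984553, was 94959 bp away inside Spidr, a gene of DNA repair by homologous recombination. It had the same pileup of 11 and a fold of 5.88 (3.18 to 10.1). Both Cebpd peaks were weak by the standard of the list, in which 2295 peaks had a higher fold than the first and 2483 a higher fold than the second.

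Cebpb (gene ID 12608), which encodes C/EBPβ, lies at chromosome 2, 167688915 to 167690432, on the plus strand, and no summit fell in its window of 201.5 kb. The nearest summit was 143322 bp past its downstream end, at 167833658 to 167833829, where 16 ChIP fragments (9.15 to 26.0) gave a fold of 8.57 (5.11 to 13.6). Ptpn1, a gene for a tyrosine phosphatase, was the protein-coding gene closest to that summit, at 96996 bp. The list holds only regions that passed the caller's q-value limit of 0.01 and gives no value for a gene without a peak. The lowest pileup in it was 9 fragments, also at the background floor of 0.977 fragments, where 9 fragments gave a fold of 5.06. A site with fewer fragments was not detectable at this depth, so an empty window does not show that binding was absent.

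Pparg (gene ID 19016), which encodes PPARγ, lies at chromosome 6, 115360879 to 115490404, on the plus strand, and had 1 peak. It stood at 115493446 to 115493695, with the summit 3141 bp past the downstream end and 71479 bp from the nearest of its 3 annotated starts. The pileup was 13 (6.92 to 22.2) in ChIP against a scaled input background of 1.04 fragments, and the fold was 6.86 (3.88 to 11.4) with a −log10 q of 7.04. In the list 1779 peaks had a higher fold. The summit lay in no annotated gene. For both Cebpa and Pparg the closest summit was past the downstream end, at 5427 and 3141 bp. The distances to the nearest start were unlike, 8062 bp for Cebpa and 71479 bp for Pparg.

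**Figure D1:**
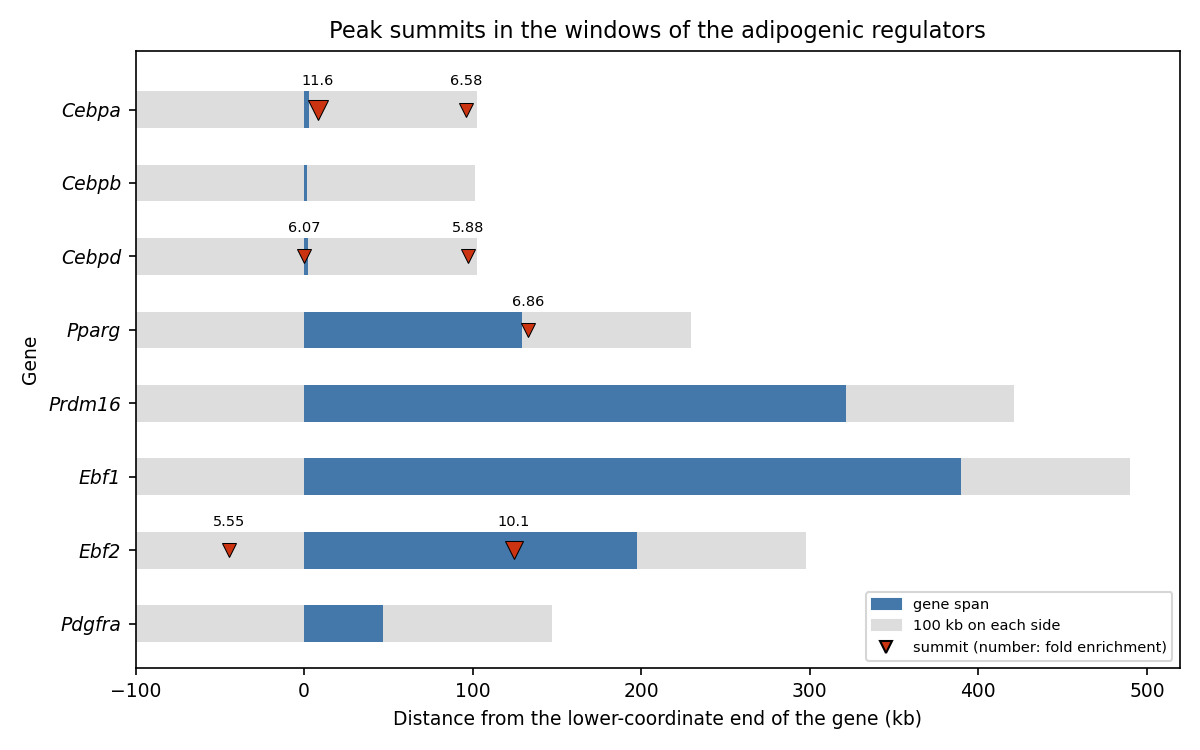
Positions of the peak summits around the 8 adipogenic regulators. The horizontal axis is the distance in kb from the lower-coordinate end of each gene, dark bars are gene spans, pale bars the 100 kb on each side, and triangles are summits, larger for a higher fold enrichment, which is printed above them. Cebpa, Cebpd, Pparg and Ebf2 hold the 7 summits, and the long spans of Prdm16 and Ebf1 hold none.

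Of the genes tied to brown fat, Ebf2 had a peak inside it and Prdm16 and Ebf1 had none in their windows, although theirs were the widest. Ebf2 (gene ID 13592), which encodes an early B-cell factor that marks brown and beige preadipocytes, lies at chromosome 14, 67233292 to 67430952. The stronger of its 2 peaks spanned 67357463 to 67357671 and was the only one of the 7 with its summit inside a member gene, where the long noncoding RNA gene 4930438E09Rik also lies. Its pileup was 19 (11.4 to 29.7) in ChIP against a scaled input background of 0.977 fragments, the fold was 10.1 (6.29 to 15.5) and the −log10 q 14.2, and 375 peaks of the list had a higher fold. The weaker peak, at 67188560 to 67188756, was 44595 bp outside the lower-coordinate end, inside the long noncoding RNA gene Gm30438, with Ebf2 as the closest protein-coding gene. It had the lowest values of the 7, with 10 ChIP fragments (4.80 to 18.4) and 5.55-fold enrichment (2.92 to 9.77). No other protein-coding gene lies within 100 kb of Ebf2.

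Prdm16 (gene ID 70673), which encodes a zinc finger coregulator of brown fat genes, lies at chromosome 4, 154316122 to 154637360, on the minus strand. The nearest summit was 492886 bp away inside Morn1, where 13 ChIP fragments gave 7.08-fold (4.01 to 11.8). Ebf1 (gene ID 13591), the early B-cell factor that also acts in adipocyte differentiation, lies at chromosome 11, 44618100 to 45008096, on the plus strand. Its nearest summit was 250236 bp away, where 16 ChIP fragments gave 6.64-fold (3.96 to 10.5), and Il12b was the closest protein-coding gene to it. The windows were 521.2 kb for Prdm16 and 590.0 kb for Ebf1, both empty, against 397.7 kb for Ebf2. The smaller windows of Cebpb (201.5 kb) and Pdgfra (246.9 kb) were empty too.

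Pdgfra (gene ID 18595), which encodes the receptor that marks fibro-adipogenic progenitors, lies at chromosome 5, 75151322 to 75198206, on the plus strand, and its window held no summit. The nearest was 400675 bp away, at 74750509 to 74750680, where 13 ChIP fragments gave 5.47-fold (3.09 to 9.08), and Lnx1 was the closest protein-coding gene to it. Beside Cebpb, Prdm16 and Ebf1, Pdgfra was the fourth regulator with an empty window.

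The 7 peaks lay below the median fold of the list, apart from the nearer Cebpa peak and the one inside Ebf2. Their median fold was 6.58 (range 5.55 to 11.6), against 7.35 for all 2977 peaks (quartiles 6.27 and 8.82). Of the 7, 2 lay above that median of all peaks. The Pparg peak at 6.86-fold and the Lrp3 peak at 6.58-fold lay between the quartiles. The median pileup was 12 fragments for the 7 peaks, against 15 for all peaks, and the median width 197 bp for the 7 peaks, against 230 bp for all peaks. The nearer Cebpd peak and the Lrp3 peak had the smallest width in the list, 172 bp, which is the fragment length the caller used, as did 333 of all peaks (11.2%). The background that entered the fold ran from 0.977 to 1.04 fragments over the 7 peaks, or 1.88 to 2 fragments before scaling. Their folds thus followed the ChIP pileup. The background was at the floor for 4 of the 7 peaks, against 44.1% of all peaks. At those 4 the local input, which may be lower than the floor, cannot be recovered. All 7 intervals of the fold overlap, from 7.48 to 9.77, and differences between the peaks were not tested.

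**Figure D2:**
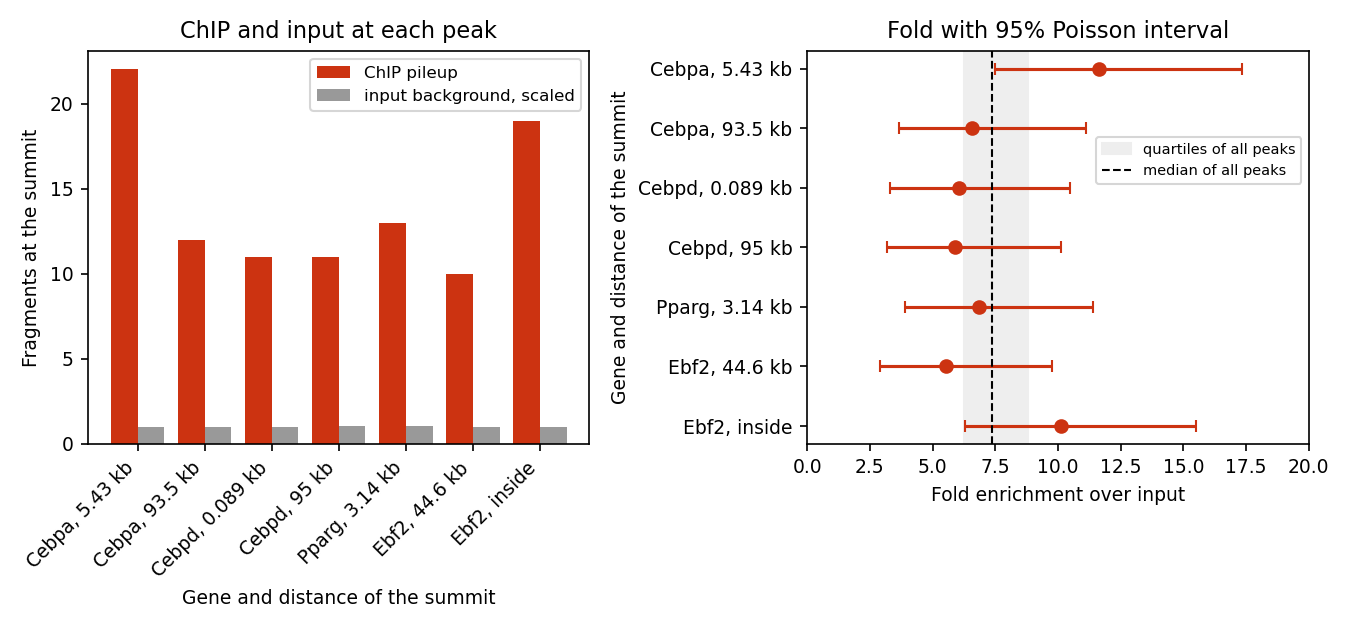
ChIP and input at the 7 peaks. Left, the ChIP pileup and the scaled input background in fragments for each peak, named by gene and distance of the summit; right, the fold enrichment with its 95% exact Poisson interval (counting error only), with the quartiles and the median of all 2977 peaks as a band and a dashed line. The nearer Cebpa peak at 11.6 and the Ebf2 peak inside the gene at 10.1 lie above the band. The background stays near 1 fragment throughout and is at its floor for 4 of the 7 peaks.

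By the rule of 100 kb, 4 of 8 regulators (50.0%) had a summit, against 31.6% of the 21774 protein-coding genes and 33.3% of those on autosomes, where all 8 regulators lie. The 95% Clopper-Pearson interval of 4 in 8, from 15.7 to 84.3%, holds both of these shares. A second summit within 100 kb was present for Cebpa, Cebpd and Ebf2, 3 of 8 genes, against 10.3% of protein-coding genes with at least 2. Each of the 4 genes had a summit inside it or within 10 kb, 4 of 8 against 10.9% of protein-coding genes, and the count was the same within 50 kb, against 21.5%. A summit inside the gene was present for 1 of 8, against 5.49%. The regulators were chosen with peaks at Cebpa, Pparg, Cebpd and Ebf2 already known, so these counts are a description and support nothing. Their windows held 2.60 peaks per Mb (7 in 2.69 Mb), against 1.52 per Mb over the windows of all autosomal protein-coding genes.

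Of the 7 peaks, 5 had the regulator as the closest protein-coding gene and the other 2 lay inside Lrp3 and Spidr. These 2 were also the ones just inside the limit of 100 kb, at 93505 and 94959 bp. Just outside it were a peak 132357 bp from Ebf2 with a fold of 6.01 (3.33 to 10.2), the one at 143322 bp from Cebpb, and a peak 179873 bp upstream of Cebpa, inside Pepd, with a fold of 7.59 (4.38 to 12.4). With a limit of 200 kb, 5 of 8 regulators had a summit, against 46.7% of protein-coding genes.

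**Figure D3:**
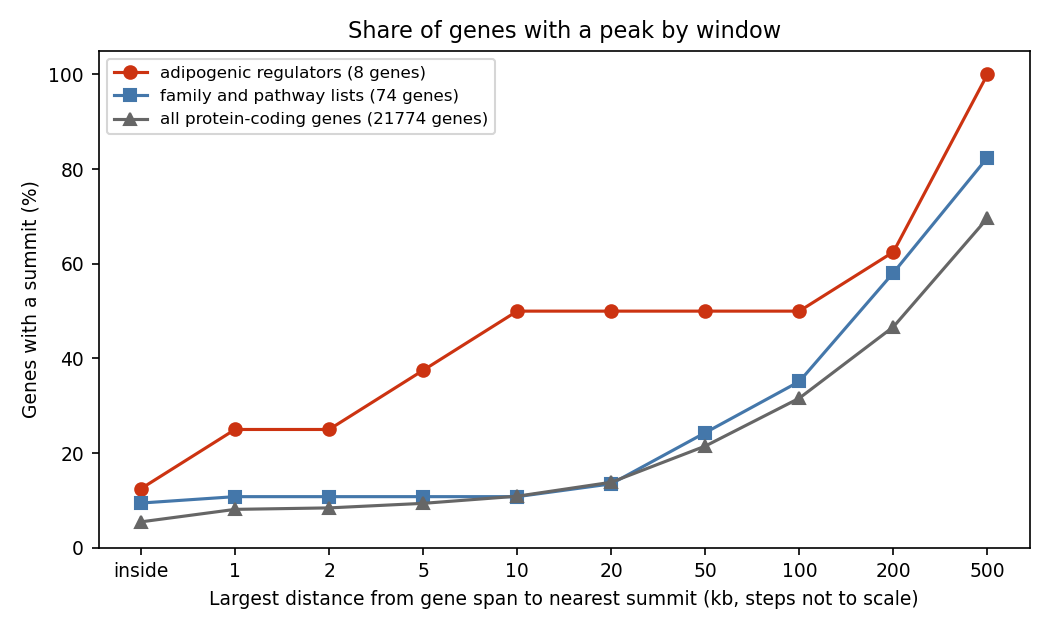
Share of genes with a summit by the largest distance allowed. The horizontal axis is the distance limit in kb (steps not to scale) and the vertical axis the percent of genes with a summit inside the gene or within the limit, for the 8 adipogenic regulators, the 74 genes of the family and pathway lists, and the 21774 protein-coding genes. The line of the regulators reaches 50.0% at 10 kb and stays there up to 100 kb, and all 8 have a summit within 500 kb.

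Among the relatives of the regulators, 3 of 9 had a summit within 100 kb and 1 of 9 within 10 kb, shares near the 31.6% and 10.9% of all protein-coding genes. Of these family members, Cebpe, Cebpg and Mecom had the summits within 100 kb and Ddit3, Ppara, Ppard, Ebf3, Ebf4 and Pdgfrb had none. Mecom, which encodes a zinc finger factor related to PRDM16, had a peak inside it with a fold of 9.80 (pileup 19), the only one of the family within 10 kb. The Cebpg summit is the nearer Cebpa peak again, 70789 bp from Cebpg, since both genes lie in the same stretch of chromosome 7. Cebpe, a C/EBP gene of granulocytes, had 3 summits within 100 kb, the strongest with a fold of 10.5 (pileup 26) at 25635 bp and closest to Slc7a8. Ebf3 and Ebf4 had their nearest summits at 114.8 and 115.7 kb, so among the early B-cell factor genes Ebf2 alone had a summit within 100 kb.

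Of the 30 genes for white and general adipogenesis, 11 had a summit within 100 kb (36.7%) and 3 within 10 kb, near the 31.6% and 10.9% of all protein-coding genes. The 3 were Tle3, Zfp521 and Fasn. Tle3, a corepressor gene that acts with PPARγ, had the strongest, 13.7-fold (pileup 26) inside the gene, and Zfp521, which encodes an inhibitor of adipogenesis that acts on EBF factors, had one of 11.1-fold (pileup 21), also inside. Stat5a and Stat5b shared a peak of 9.61-fold that was closest to Stat3. Of the 20 brown fat genes, 9 had a summit within 100 kb, and the 95% Clopper-Pearson interval of that share, from 23.1 to 68.5%, holds the 31.6% of all protein-coding genes. Within 10 kb it was 4 of 20, against 10.9%. The summit was inside Tbx15 at 10.1-fold (pileup 19), inside the coactivator gene Ppargc1a at 6.37-fold (pileup 12) and inside Ppargc1b at 7.08-fold (pileup 13), and 297 bp outside Zfp516 at 7.59-fold (pileup 14). Bmp4 had one of 8.09-fold at 22463 bp and was the closest protein-coding gene to it. The summit for Cidea, 8.33-fold at 81459 bp, was closest to Afg3l2, and that for Tbx1, 7.59-fold at 36080 bp, was closest to Septin5. Ucp1, the uncoupling protein that gives brown fat its heat, had a summit of 7.08-fold at 34331 bp, closest to Elmod2. Fasn, Ppargc1a, Ppargc1b and Ucp1 were named after their values were seen.

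Markers of fibro-adipogenic progenitors had a summit within 100 kb at 3 of 15 genes, against 31.6% of all protein-coding genes, and at 0 of 15 within 10 kb, against 10.9%. Col1a1 had one of 9.31-fold at 22437 bp and was the closest protein-coding gene to it. The summit for Pdgfrl, 8.60-fold at 83711 bp, was closest to Mtus1, and that for Vim, 4.87-fold at 51986 bp, closest to Trdmt1. Muscle stem cell markers had a summit within 100 kb at 6 of 9 genes (66.7%), against 31.6%. Within 10 kb it was 4 of 9, Pax7, Sdc4, Vcam1 and Calcr, against 10.9%. The 95% Clopper-Pearson intervals within 100 kb, 29.9 to 92.5% for 6 of 9 and 4.33 to 48.1% for 3 of 15, overlap. Both hold the 31.6%, and the difference was not tested. In the muscle stem cell list, the Cdh15 summit lay at 38058 bp and was closest to Ankrd11. Myf5, Itga7 and Spry1 had their nearest summits at 175.6, 343.4 and 135.7 kb, outside the limit. The highest folds of the list were 14.7 for Pax7, 13.2 for Chrdl2, 11.5 for Sdc4 and 10.6 for Vcam1, and the Chrdl2 peak lay 41329 bp away and was closest to Pold3. The strongest regulator peak, that of Cebpa at 11.6-fold (7.48 to 17.4), lay in fold between the Chrdl2 peak (8.69 to 19.2) and the Sdc4 peak (7.63 to 16.8). These intervals overlap, and the differences were not tested. Over the 74 genes of the family, white, brown and progenitor lists together, 26 had a summit within 100 kb (35.1%) and 8 within 10 kb, against 31.6% and 10.9% of all protein-coding genes. Both shares are near the background.

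**Figure D4:**
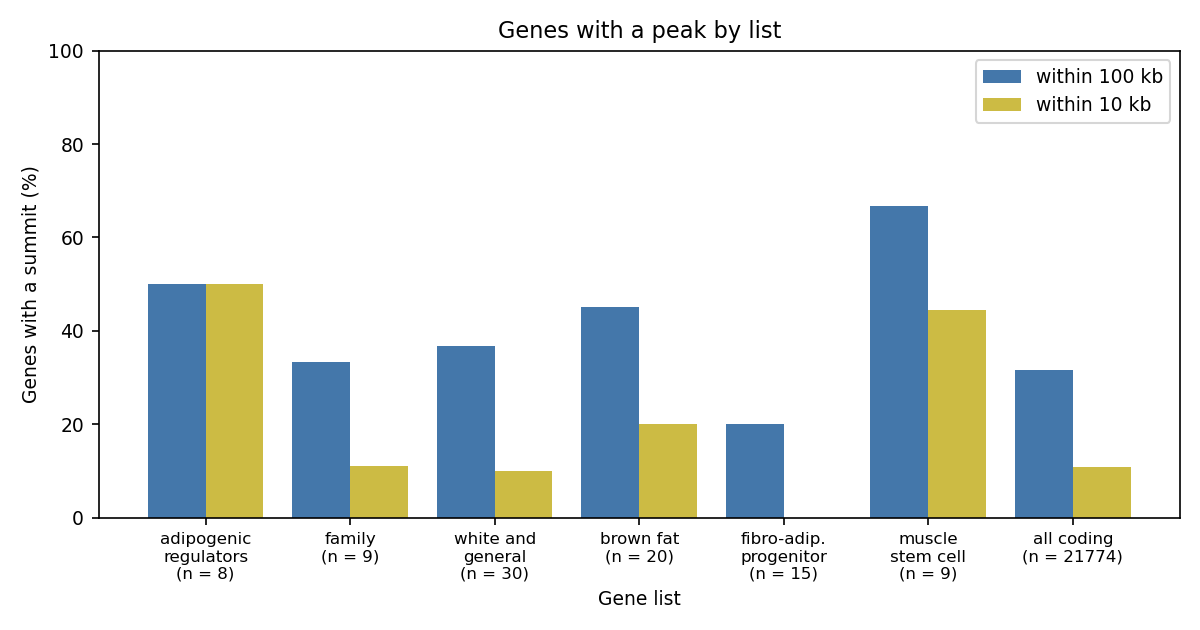
Genes with a peak by list. Bars give the percent of genes with a summit within 100 kb and within 10 kb for the adipogenic regulators, the other lists and all protein-coding genes, with the number of genes under each name. The regulators stand at 50.0% in both, the muscle stem cell markers at 66.7% within 100 kb, and the progenitor markers have 3 of 15 genes within 100 kb and 0 within 10 kb. All protein-coding genes stand at 31.6% within 100 kb. The Clopper-Pearson intervals of the muscle stem cell and progenitor shares within 100 kb overlap and hold that value, and their difference was not tested.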

How the data were processed

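DNA of muscle stem cells was sequenced as single-end tags of 50 bases from 1 ChIP and 1 input library. GRCm38, bcl2fastq 2.16, HISAT2 2.10 and MACS2 2.1.1 are named per the submitters' processing notes. The authors called narrow peaks on the ChIP library against the input (MACS 2.1.1.20160309, q-value up to 0.01), with fragments of 172 bp and at most 1 tag per position, and multiplied the input by 0.520 to match the ChIP library, as recorded in the file headers. The pileup that the authors deposited is an unscaled coverage signal, the deposited fold enrichment is a ratio, and the p-value and q-value were deposited as the caller's −log10 values. Background was recovered here from pileup and fold, and intervals are exact Poisson intervals of the pileup with that background fixed. Genes came from RefSeq (GRCm38.p6); 126 protein-coding genes with coordinates on scaffolds or patches were left out. Exons, introns and UTRs were not analysed here. The window count was tested on simulated data.

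Members and lists were chosen with earlier results of these data known. Named were all members with every peak, up to 4 genes per list by fold (5 for brown fat, where 2 tied), and every family gene. Fasn, Ppargc1a, Ppargc1b, Ucp1 and Calcr, all in the lists, were named in the text after their values were seen. So were Cdh15 and the muscle stem cell markers without a summit within 100 kb. Alternatives were stricter peak limits, other windows, any overlap, the closest gene only, and leaving out high pileup or background. Python 3.11.15, pandas 2.3.3 and scipy 1.17.1 were used.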

Additional observations from a re-analysis of the deposited data

How the results depend on the processing

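With the stronger peaks alone (−log10 q no lower than its median over the list), or with a fold of at least 10, 2 of the 8 regulators (Cebpa and Ebf2) had a summit within 100 kb and 2 peaks were left; by the same limits 18.5% and 6.03% of protein-coding genes had one. The median fold of the regulators' peaks was then 10.9 under both limits, since the limits remove low folds. With a window of 10 kb, 4 peaks were left, still at 4 regulators. The 74 genes of the family and pathway lists had a summit at 5 with a fold of at least 10, at 8 within 10 kb, at 43 within 200 kb, and at 12 when the gene had to be the closest protein-coding gene. The number of regulators with a summit stayed within 1.5 times of 4 under the other 7 of the 9 alternatives. The highest folds of Cebpa and Ebf2 were the same under all 9, and those of Cebpd and Pparg under the 7 that gave a value, since their peaks lie below both stricter limits. No alternative recomputed the fold of a peak, so this sameness was largely fixed in advance. No paired analysis was possible because each group had 1 library. Depth limits the weak peaks most: 429 of the 2977 peaks rest on 11 fragments or fewer, among them 3 of the 7 described here.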
